A study of Mus musculus with 10 samples.

Results

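Semaphorins, plexins and neuropilins are a family of guidance ligands and their receptors, and their transcripts were followed here in ribosome-bound RNA from the left and right medial habenula of adult mice. The members were all gene rows whose symbol names a semaphorin of classes 3 to 7, a plexin of the A, B, C or D type, or Nrp1 or Nrp2. This gave 32 of 32531 gene rows, of which 31 are protein-coding genes (20 semaphorins, 9 plexins and 2 neuropilins). The remaining row, Plxna4os1, is an antisense RNA inside Plxna4 and had between 0 and 5 reads per library. There were 5 libraries from the left side and 5 from the right side, all from the Chat-TRAP line DW167, in which a Chat bacterial artificial chromosome transgene drives EGFP fused to the ribosomal protein Rpl10a. Tagged polysomes of each side were pulled down with antibodies to EGFP, so all libraries share the same transgene and the same purification. Input RNA from before the purification was not analysed here, and enrichment was therefore not computed. Whether separate animals stand behind the replicates is not in the labels, and p-values measure only the spread between these libraries, which may be technical.

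Semaphorins are secreted, membrane-spanning or lipid-anchored proteins that steer growing axons and dendrites and act on synapses of mature neurons. Class 3 semaphorins are secreted and mostly bind a neuropilin, which has no catalytic part of its own and passes the signal on through a plexin of the A type. The membrane-bound classes bind plexins directly, and the cytoplasmic part of a plexin acts on small GTPases and through them on the actin cytoskeleton. The medial habenula sends its axons through the fasciculus retroflexus to the interpeduncular nucleus, and Nrp2 is needed in mice for this tract to form normally.

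Libraries held between 42488448 and 67942836 gene reads, and levels are given as CPM (reads per 1000000 gene reads), with the SD over 5 libraries per side. Markers of the neurons sought were abundant in all 10 libraries, with Chat between 84.5 and 195.5 CPM and the habenular transcription factor Pou4f1 between 150.5 and 391 CPM. Replicates 1 and 5 of both sides stood apart from replicates 2 to 4. The summed level of 12 astrocyte markers was 118 to 128 CPM in replicates 1 and 5 and 447 to 1825 CPM in replicates 2 to 4. In replicates 1 and 5 the sums were 98.1 to 109 CPM for 10 oligodendrocyte, 7.13 to 8.40 for 5 oligodendrocyte precursor, 6.74 to 8.48 for 9 microglia, 4.73 to 7.48 for 10 endothelial and pericyte, 791 to 825 for 8 thalamic and 25.4 to 43.9 CPM for 8 GABAergic markers. In replicates 2 to 4 those sums were 395 to 1645, 26.0 to 84.7, 14.1 to 37.1, 18.2 to 41.1, 1267 to 2500 and 136 to 507 CPM. Replicates 1 and 5 lay below all others for 12 of 12 astrocyte, 10 of 10 oligodendrocyte, 5 of 5 precursor, 6 of 9 microglia, 8 of 10 endothelial and pericyte, 6 of 8 thalamic and 4 of 8 GABAergic markers. Cldn5, Aif1, Gbx2, Dlx1, Dlx6 and Vip were at 0 in at least 1 library. The 11 habenular markers ran the other way (9 of 11 with replicates 1 and 5 on top), at 10556 to 11029 CPM in replicates 1 and 5 and 5193 to 9060 CPM in replicates 2 to 4. Replicates 1 and 5 of a side were also closest to each other, with a chi-square per degree of freedom of 2.14 in left libraries and 1.29 in right libraries against 6.71 to 49.7 for the other pairs of a side, so they may share RNA. They still differed by more than sampling noise and were kept as separate libraries. That does not show that they are independent, so tests between the sides may count the same RNA more than once.

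The family was carried by 3 transcripts, the receptor Plxnc1, the receptor Nrp2 and the ligand Sema5a. Together they made up 47.1% to 65.8% of all family reads in a library. The family as a whole stood at 2540.3 ± 224 CPM in left libraries and 2414 ± 181 CPM in right libraries. Semaphorins contributed 1242 ± 189 CPM in left libraries and 1157 ± 98.1 CPM in right libraries. Plexins contributed 826 ± 112 CPM (left) and 791 ± 72.7 CPM (right), and neuropilins 473 ± 89.9 CPM (left) and 466 ± 130 CPM (right). The sides overlapped in each of these sums.

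**Figure D1:**
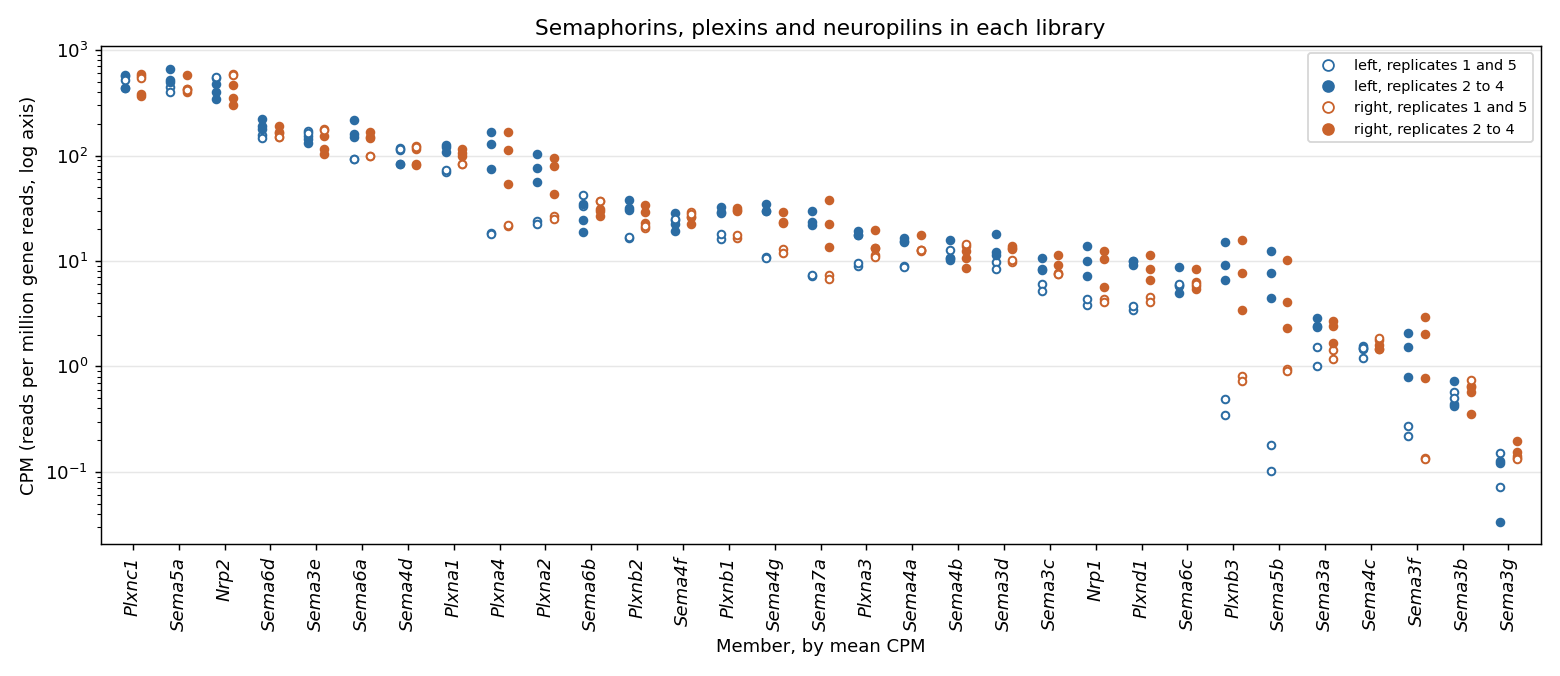
CPM of the 31 protein-coding members (log axis), ordered by their mean over 10 libraries, with left libraries in blue beside right libraries in orange and 1 point per library. Open points are replicates 1 and 5, which lie below the filled points for Plxna4, Plxnb3, Sema5b and Sema3f and above them for Nrp2 and Sema3e, while left and right points overlap for every member.

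Among the receptors, Plxnc1 had the highest mean over the 10 libraries, also per exon length. Its gene lies on chromosome 10 (94790866 to 94944835, GRCm38). Plxnc1, a receptor of Sema7a, stood at 578, 568, 434, 434 and 524 CPM in left replicates 1 to 5 and at 564, 587, 379, 364 and 542 CPM in right replicates 1 to 5. On both sides replicates 1, 2 and 5 were high and replicates 3 and 4 low, and the sides overlapped. The log2 fold change, left minus right, was 0.04 with a 95% interval of -0.30 to 0.39. In the annotation 115 exonic bases of Plxnc1 are shared with an unclassified transcript of the same strand, which leaves its count uncertain to that extent.

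Nrp2, the neuropilin with high affinity for Sema3f, stood at 544, 479.9, 399, 342 and 561 CPM in left replicates 1 to 5 and at 590.0, 469.7, 299, 348 and 586 CPM in right replicates 1 to 5. The gene lies on chromosome 1 (62703285 to 62818695, GRCm38). The 4 libraries of replicates 1 and 5 were all above the other 6, and the sides overlapped almost entirely (log2 fold change 0.0048, 95% interval -0.47 to 0.48). Nrp1, which binds Sema3a and VEGF, was far lower, at 3.81 to 13.7 CPM in left libraries and 4.08 to 12.4 CPM in right libraries. Scaled by exon length, the level of Nrp2 was 44.3 to 49.8 times that of Nrp1 in replicates 1 and 5 and 8.34 to 28.5 times in replicates 2 to 4. Lengths are those of coding transcripts in GENCODE M21, and the annotation behind the counts is unknown here, so ratios between genes are approximate.

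Plexins of the A type, which transmit class 3 signals from neuropilins and bind class 6 semaphorins directly, were lower than Plxnc1 per exon length, at means of 10.9 (Plxna1), 6.12 (Plxna4), 4.997 (Plxna2) and 2.04 (Plxna3) against 68.1 CPM per kilobase. Plxna1 stood at 70.0, 121, 108, 127 and 73.7 CPM in left replicates 1 to 5 and at 82.7, 106, 116, 98.4 and 82.3 CPM in right replicates 1 to 5. Plxna4 stood at 18.5, 74.5, 129, 169 and 17.99 CPM in left replicates 1 to 5 and at 21.5, 54.0, 167, 114 and 22.1 CPM in right replicates 1 to 5. Plxna4 lies on chromosome 6 (32144268 to 32588192). In both genes replicates 1 and 5 were the lowest 4 libraries, and for Plxna4 the highest library was 9.37 times the lowest. Plxna2, a receptor of Sema6a, stood at 24.1, 56.5, 75.6, 105 and 22.6 CPM in left replicates 1 to 5 and at 26.4, 42.9, 94.4, 79.9 and 24.9 CPM in right replicates 1 to 5. Plxna3, a partner of Nrp2 in class 3 signalling, ranged from 9.05 to 19.3 CPM in left libraries and from 10.9 to 19.5 CPM in right libraries. Intervals of the log2 fold change between the sides were -0.41 to 0.44 for Plxna1, -1.64 to 1.78 for Plxna4, -1.13 to 1.20 for Plxna2 and -0.50 to 0.65 for Plxna3. The annotation has antisense genes that share 970 exonic bases with Plxna1 and 110 with Plxna4, and whether strand was used in the counting is unknown here.

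B-type plexins, the receptors of class 4 semaphorins, averaged 3.99 (Plxnb2), 2.90 (Plxnb1) and 0.996 (Plxnb3) CPM per kilobase. Plxnb2, a receptor of Sema4c, stood at 16.5, 30.5, 31.8, 38.1 and 17.0 CPM in left replicates 1 to 5 and at 20.5, 29.3, 33.7, 23.1 and 21.5 CPM in right replicates 1 to 5. Plxnb1, the receptor of Sema4d, ranged from 16.1 to 32.4 CPM in left libraries and from 16.7 to 31.8 CPM in right libraries, and shares 257 exonic bases with an antisense gene. Plxnb3, a receptor of Sema5a, stood at 0.489, 6.57, 9.07, 15.1 and 0.343 CPM in left replicates 1 to 5 and at 0.804, 3.42, 15.8, 7.74 and 0.721 CPM in right replicates 1 to 5. All 3 genes had their 4 lowest libraries in replicates 1 and 5, and Plxnb3 (chromosome X, 73757090 to 73772514) was under 1 CPM there, with 19 reads in its lowest library. Plxnd1, which binds Sema3e without a neuropilin, stood at 3.42, 9.06, 10.1, 10.04 and 3.75 CPM in left replicates 1 to 5 and at 4.53, 6.63, 11.4, 8.38 and 4.12 CPM in right replicates 1 to 5. Its 4 lowest libraries were again replicates 1 and 5 of both sides.

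Among the ligands, the membrane-spanning Sema5a was the highest per exon length, and its level per library did not follow the order seen for most receptors. Sema5a, which carries thrombospondin repeats outside the cell, stood at 451, 524, 498, 668 and 403 CPM in left replicates 1 to 5 and at 429, 583, 427, 400.4 and 417 CPM in right replicates 1 to 5. The gene lies on chromosome 15 (32244810 to 32696341). Its highest libraries were left replicate 4 and right replicate 2, and its log2 fold change was 0.15 (95% interval -0.17 to 0.47). Sema5b, its relative on chromosome 16 (35541145 to 35664732), stood at 0.101, 4.499, 7.76, 12.4 and 0.180 CPM in left replicates 1 to 5 and at 0.953, 2.30, 10.3, 4.05 and 0.898 CPM in right replicates 1 to 5. The highest library of Sema5b was 123 times the lowest, the widest range among the 31 members, and the lowest held 6 reads.

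Of the secreted class 3 ligands, 1 was abundant. Sema3e, on chromosome 5 (14025276 to 14256689), stood at 171, 144, 130.2, 153 and 164 CPM in left replicates 1 to 5 and at 179, 155, 103, 115 and 174 CPM in right replicates 1 to 5. Like Nrp2, it had its 4 highest libraries in replicates 1 and 5, and its sides overlapped (log2 fold change 0.05, 95% interval -0.30 to 0.40). Sema3c, which binds both neuropilins, stood at 6.04, 8.33, 8.13, 10.7 and 5.196 CPM in left replicates 1 to 5 and at 7.55, 7.66, 11.4, 9.25 and 7.57 CPM in right replicates 1 to 5. Sema3d ranged from 8.32 to 18.1 CPM in left libraries and from 9.73 to 13.7 CPM in right libraries. The classic ligands of the neuropilins were near the bottom of the family, at means of 0.314 (Sema3a) and 0.311 (Sema3f) CPM per kilobase. Sema3a, the ligand of Nrp1, averaged 2.04 ± 0.757 CPM in left libraries and 1.87 ± 0.642 CPM in right libraries. Sema3f, the ligand of Nrp2, stood at 0.219, 0.792, 2.06, 1.52 and 0.271 CPM in left replicates 1 to 5 and at 0.134, 0.783, 2.92, 2.02 and 0.132 CPM in right replicates 1 to 5. Its 4 lowest libraries, with 9 reads in the lowest, were replicates 1 and 5 of both sides, the 4 in which Nrp2 was highest. In these 4 libraries 24.3% of all tested genes lay below all other libraries and 22.9% above, so this order is not particular to the pair. Scaled by exon length, the level of Sema3e was 309 to 677 times that of Sema3f in replicates 1 and 5 and 17.9 to 100.4 times in replicates 2 to 4. Sema3b and Sema3g, also secreted, were the lowest of the 31 members, at 0.534 ± 0.124 and 0.101 ± 0.0475 CPM in left libraries, with 0.596 ± 0.149 and 0.152 ± 0.0266 CPM in right libraries.

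In class 4, whose members span the membrane, Sema4d led. Sema4d, the ligand of Plxnb1, stood at 117, 112, 82.4, 83.3 and 115 CPM in left replicates 1 to 5 and at 124, 116, 80.9, 83.1 and 120.5 CPM in right replicates 1 to 5. Replicates 1, 2 and 5 were high on both sides, as they were for Plxnc1. Sema4f stood at 24.5, 28.3, 22.6, 19.2 and 24.8 CPM in left replicates 1 to 5 and at 28.9, 22.5, 26.4, 26.3 and 28.1 CPM in right replicates 1 to 5. Sema4a stood at 8.92, 16.5, 15.2, 15.6 and 8.73 CPM in left replicates 1 to 5 and at 12.7, 12.7, 17.6, 12.5 and 12.8 CPM in right replicates 1 to 5. Replicates 1 and 5 were low for Sema4a in left libraries, but not set apart in right libraries. Sema4g, Sema4b and Sema4c averaged 23.3 ± 11.5, 12.04 ± 2.34 and 1.44 ± 0.135 CPM in left libraries and 20.1 ± 7.30, 11.99 ± 2.36 and 1.63 ± 0.186 CPM in right libraries. Sema4c shares 334 exonic bases and Sema4a 73 with other annotated genes, which leaves their counts uncertain to that extent.

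In class 6, whose membrane-spanning members bind A-type plexins, 2 ligands were abundant. Sema6d, a ligand of Plxna1, stood at 155, 189, 179, 224 and 147 CPM in left replicates 1 to 5 and at 151, 167, 190.3, 165 and 150.3 CPM in right replicates 1 to 5. Sema6a, a ligand of Plxna2 and Plxna4, stood at 92.1, 159.5, 151, 219 and 93.1 CPM in left replicates 1 to 5 and at 98.2, 151, 167, 147 and 99.5 CPM in right replicates 1 to 5. Both had their 4 lowest libraries in replicates 1 and 5. The level of Sema6d per exon length was 1.498 to 1.67 times that of Sema6a in replicates 1 and 5 and 1.012 to 1.17 times in replicates 2 to 4. Sema6b, a ligand of Plxna4, stood at 33.4, 34.9, 24.5, 18.9 and 42.0 CPM in left replicates 1 to 5 and at 36.9, 31.4, 26.9, 29.96 and 37.3 CPM in right replicates 1 to 5. Sema6c ranged from 4.96 to 8.70 CPM in left libraries and from 5.39 to 8.32 CPM in right libraries. Sema7a, the lipid-anchored ligand of Plxnc1, stood at 7.13, 22.0, 23.2, 29.8 and 7.40 CPM in left replicates 1 to 5 and at 7.39, 13.7, 37.8, 22.2 and 6.73 CPM in right replicates 1 to 5. Sema7a had its 4 lowest libraries in replicates 1 and 5, which were below all others for 24.3% of all tested genes. Plxnc1 overlapped between replicates 1 and 5 and replicates 2 to 4.

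Levels of different genes were ordered per kilobase of exon. Plxnc1 came first, at 69.5 ± 9.63 CPM per kilobase in left libraries and 66.7 ± 14.6 in right libraries. Sema5a stood at 47.1 ± 9.29 in left libraries and 41.8 ± 6.89 in right libraries, and Nrp2 at 44.8 ± 9.05 (left) and 44.2 ± 12.9 CPM per kilobase (right), which differ by less than their SD. A second tier held Sema6d (24.9 ± 4.24 in left libraries and 22.9 ± 2.27 in right libraries), Sema3e (22.2 ± 2.36 left and 21.2 ± 5.01 right), Sema4d (21.5 ± 3.70 left and 22.1 ± 4.46 right) and Sema6a (20.1 ± 7.45 left and 18.6 ± 4.45 CPM per kilobase right). Neighbours in this tier lay within 1 SD of each other, except that Sema6d and Sema3e in left libraries differed by more than the SD of Sema3e. Plxna1 followed at 11.1 ± 2.95 in left libraries and 10.8 ± 1.62 CPM per kilobase in right libraries, and every other member averaged under 10 CPM per kilobase.

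**Figure D2:**
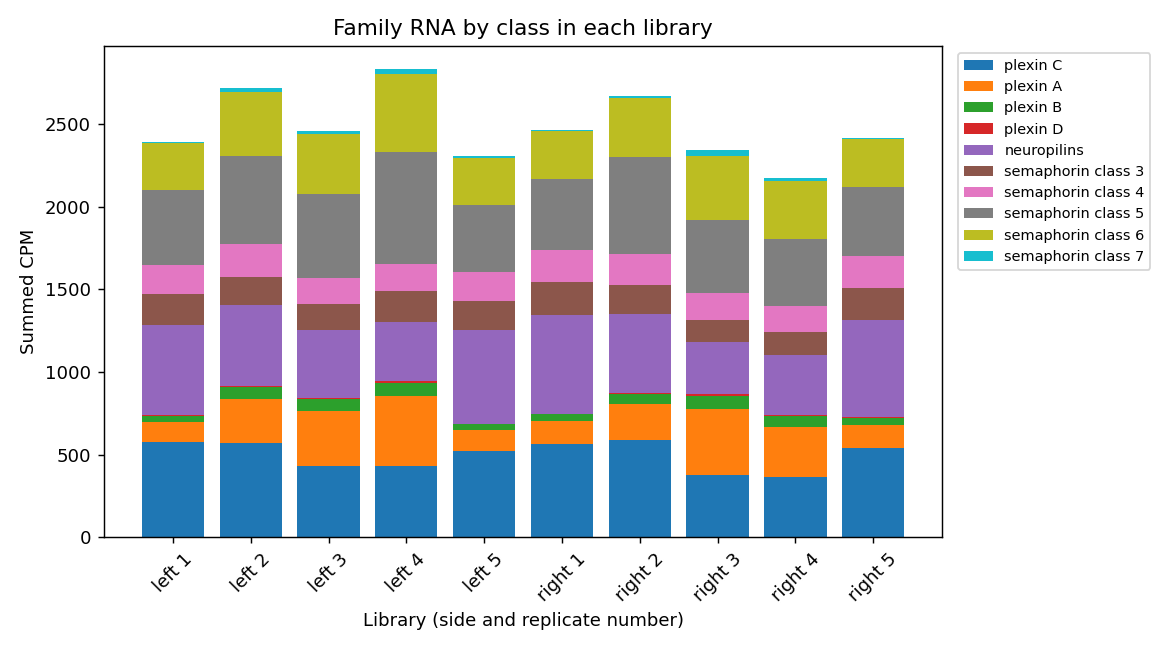
Summed CPM of the members of each class, stacked, in left replicates 1 to 5 and right replicates 1 to 5. The A-type plexins make up 122 to 142 CPM in replicates 1 and 5 and 216.5 to 420 CPM in replicates 2 to 4, and the neuropilins 548 to 594 CPM in replicates 1 and 5 and 311 to 487 CPM in replicates 2 to 4.

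Whether the family is expressed unequally on the 2 sides of the habenula was asked by setting left against right libraries. No member of the family passed the threshold of an adjusted p under 0.05 in edgeR's quasi-likelihood test, fitted on all 16250 genes with enough reads. Of the 31 protein-coding members 30 entered the test, and Sema3g had too few reads. Called were 0 of 30 members, beside 0 of 16250 genes (0%), and every member had an adjusted p of 0.99999. At an unadjusted p under 0.05 there were 0 members and 90 genes, or 0.554%. DESeq2 also called 0 members and 0 genes, with 0 members and 141 genes (0.868%) at an unadjusted p under 0.05. With replicates 1 and 5 of each side summed, since they may share RNA, edgeR called 0 of 30 members and 0 of 16553 genes. In that fit 0 members and 0.139% of genes were at an unadjusted p under 0.05. The log2 fold changes of the members, left minus right, lay between -0.34 and 0.39, with a median of 0.019 and 17 of 30 above 0. Both limits rested on members with few reads in replicates 1 and 5 and moved when 1 library was left out, to a top of 1.26 (Sema5b) without right replicate 3 and a bottom of -0.80 (Sema3f) without left replicate 3. The top was between 0.10 and 1.26 and the bottom between -0.80 and -0.20 over the 10 such fits. Over all genes tested the median was -0.0097. No member had sides that failed to overlap, which was the case for 0.215% of all genes tested.

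The width of the intervals depended on whether the fit took account of the differences between libraries. Sema4f, the member with the smallest unadjusted p in edgeR (0.206), averaged 23.9 ± 3.32 CPM in left libraries and 26.4 ± 2.46 CPM in right libraries, a log2 fold change of -0.17 with a 95% interval of -0.45 to 0.11. For Plxnb3, Sema5b and Sema3f the intervals were far wider, at -2.34 to 2.54, -2.13 to 2.91 and -2.41 to 1.73. In these members the highest library was 46.0, 123 and 22.1 times the lowest. With the glial and vascular marker score of each library as a covariate, 0 members passed in edgeR and the intervals of these 3 members were -0.33 to 0.35 (Plxnb3), -0.89 to 0.65 (Sema5b) and -0.63 to 0.70 (Sema3f). That of Plxna4 was -0.18 to 0.30, against -1.64 to 1.78 without the covariate. With the covariate the log2 fold changes lay between -0.22 and 0.14, with 0 members and 3.13% of genes at an unadjusted p under 0.05 in edgeR. In limma-voom with sample weights 2 members (Sema3f and Sema7a) were at an unadjusted p under 0.05, beside 14.5% of genes, and 0 passed the adjusted p.

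**Figure D3:**
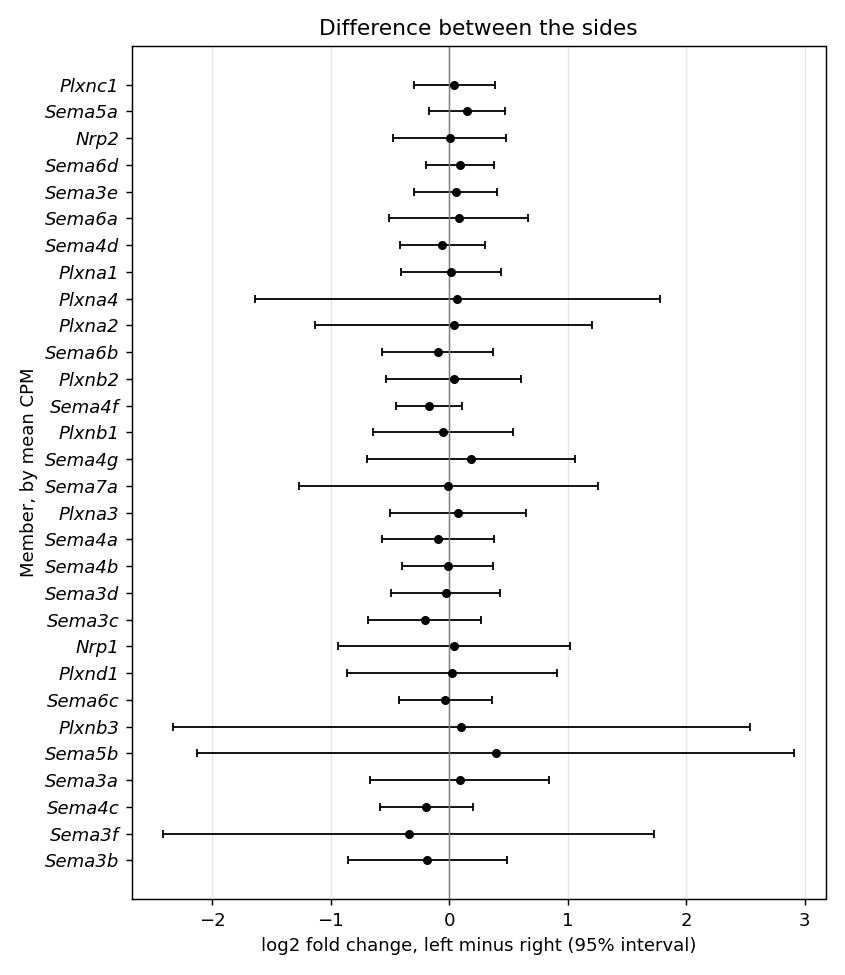
log2 fold change, left minus right, of the 30 tested members in edgeR (points) with 95% intervals (bars), ordered by mean CPM. All intervals include 0, and those of Plxna4, Plxnb3, Sema5b and Sema3f are the widest.

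Within replicates 1 and 5 alone, 8 of 30 members passed an adjusted p under 0.05 in edgeR, all 8 higher in the right libraries, beside 12.8% of all genes (5.74% with the left and 7.06% with the right on top). At an unadjusted p under 0.05 there were 15 members, beside 32.1% of genes, and among them Sema3f ran the other way, with a log2 fold change of 0.86 (adjusted p = 0.149 in edgeR). The called members were Plxna1, Plxna4, Plxnb2, Plxnb3, Sema3c, Sema4a, Sema4f and Sema5b. Sema5b had the largest difference, a log2 fold change of -2.71 (adjusted p = 0.00524 in edgeR), with 0.101 and 0.180 CPM in the left libraries and 0.953 and 0.898 CPM in the right. For Sema4a, at 8.92 and 8.73 CPM in left libraries against 12.7 and 12.8 CPM in right libraries, it was -0.53 (adjusted p = 0.00833 in edgeR). The 2 libraries of a side may share RNA, so this test does not measure the spread between animals. Summed marker levels also differed between these libraries. Endothelial and pericyte markers stood at 4.73 to 5.92 CPM in left libraries and 6.48 to 7.48 CPM in right libraries, and markers of GABAergic neurons at 25.4 to 29.5 CPM (left) and 39.4 to 43.9 CPM (right). Precursor markers stood at 7.13 to 7.17 CPM in left libraries and 8.25 to 8.40 CPM in right libraries, and microglia markers at 8.14 to 8.48 (left) and 6.74 to 7.36 CPM (right). The microglia sum did not stand for its single markers. Of 9, 4 had both left libraries below both right libraries and 1 had them above. Sums of astrocyte, oligodendrocyte and thalamic markers overlapped, at 119 to 128, 98.1 to 109 and 795 to 825 CPM in left libraries and 118 to 124, 99.1 to 102 and 791 to 798 CPM in right libraries. Their single markers did not all overlap. Both left libraries were below both right libraries for 3 of 12 astrocyte, 2 of 10 oligodendrocyte and 0 of 8 thalamic markers, and above for 5, 6 and 3. For endothelial and pericyte, GABAergic and precursor markers 7 of 10, 4 of 8 and 3 of 5 were below and 1, 1 and 0 above. The share of all genes with such an order is not given here, so these counts have nothing to be set against. The part of these cells in the differences was not tested. In replicates 2 to 4 alone, 0 members and 0 genes passed, with 0 members and 0.428% of genes at an unadjusted p under 0.05.

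Members differed between replicates 1 and 5 and replicates 2 to 4, an order that earlier results of these data had shown. Of 30 members, 18 had all 4 libraries of replicates 1 and 5 below all 6 libraries of replicates 2 to 4, where 24.3% of all tested genes did. They comprised 8 of the 9 plexins (all but Plxnc1), Nrp1 and 9 semaphorins (Sema3a, Sema3c, Sema3d, Sema3f, Sema4g, Sema5b, Sema6a, Sema6d and Sema7a). Only Nrp2 and Sema3e, 2 of 30 members, had replicates 1 and 5 above all others, where 22.9% of all genes did. Nrp2 stood at 544 to 590.0 CPM in replicates 1 and 5 against 299 to 479.9 CPM in replicates 2 to 4, and Sema3e at 164 to 179 CPM in replicates 1 and 5 against 103 to 155 CPM in replicates 2 to 4. The other 10 of 30 tested members overlapped, as did 8578 of 16250 tested genes, while 47.2% of all genes had no overlap in either direction. Without right replicate 2, 18 members were below and 3 above, beside 27.6% and 26.7% of all genes. Without replicate 5 of either side, 18 members were below and 3 above, beside 25.8% and 26.7% of all genes. In the left libraries alone 20 were below and 3 above (36.6% and 33% of all genes), and in the right libraries alone 18 and 7 (31.9% and 32.1%). Most markers of glia, vessels and thalamus listed above, and 4 of 8 GABAergic markers, moved with this order. Of 8 thalamic markers, 1 ran the other way. The part of these cells in the order was not tested. In RNA of a whole pull-down, fewer cells of a type, less RNA per cell and less RNA carried over from untagged cells cannot be told apart.

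**Figure D4:**
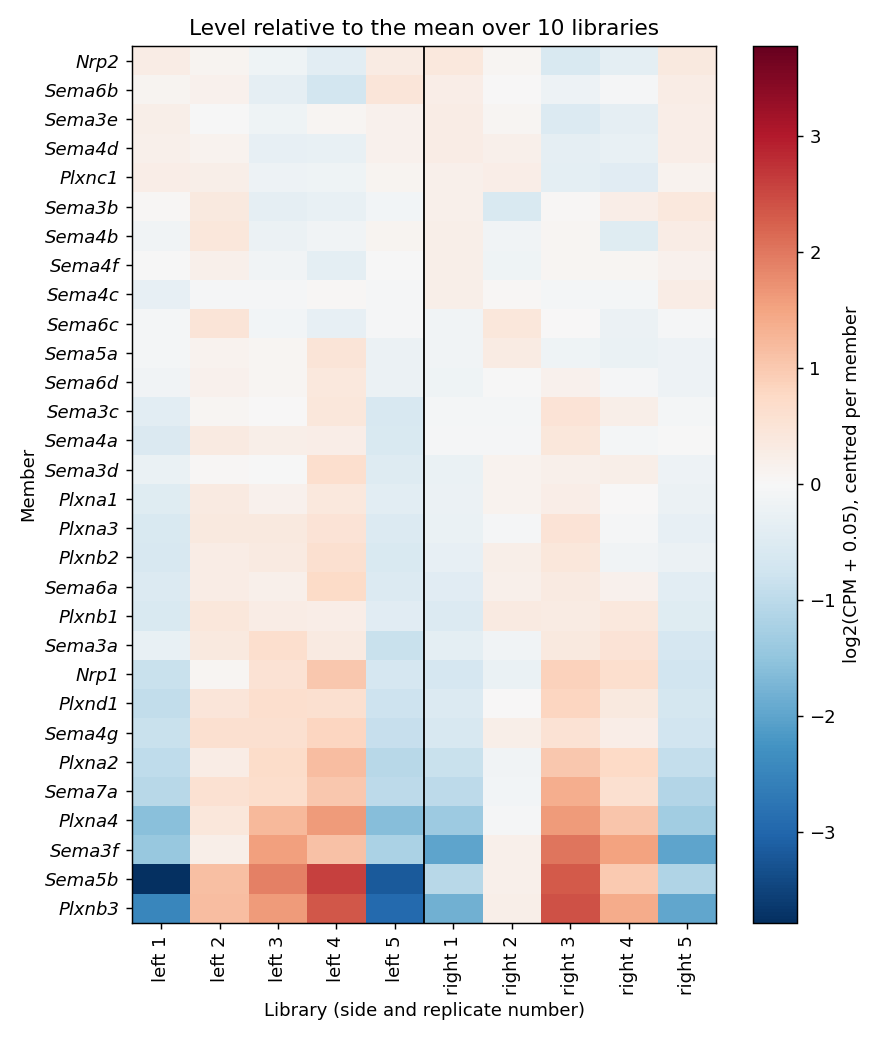
log2(CPM + 0.05) of the 30 tested members minus the mean of each member over 10 libraries, in left replicates 1 to 5 and right replicates 1 to 5. Members are sorted by the difference between replicates 1 and 5 and replicates 2 to 4, from Nrp2 at the top, which lies above its mean in replicates 1 and 5, to Plxnb3 at the bottom, which lies below it.

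Set against the glial and vascular marker score (the mean log2 CPM of 40 astrocyte, oligodendrocyte, microglia, endothelial and pericyte markers), the libraries fell into separate clusters, so no correlation is given. The score was 0.042, 2.81, 3.06, 3.52 and -0.089 in left replicates 1 to 5 and 0.28, 2.04, 3.72, 3.32 and 0.22 in right replicates 1 to 5. Right replicate 2, with the lowest score among replicates 2 to 4, also had the lowest level of Plxna4, Plxnb3 and Sema5b among those 6 libraries, at 54.0, 3.42 and 2.30 CPM. Right replicate 3, with the highest score, had the lowest level of Nrp2 and Sema3e, at 299 and 103 CPM. Among replicates 2 to 4 other values did not keep to the score. Left replicate 4 (score 3.52) had more Sema3e than left replicate 3 (score 3.06), at 153 and 130.2 CPM. Plxna4 and Sema5b were highest in left replicate 4, at 169 and 12.4 CPM, and only Plxnb3 of these 3 was highest in right replicate 3, at 15.8 CPM. Nrp2 was lower in right replicate 2 than in left replicate 2, at 469.7 and 479.9 CPM.

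**Figure D5:**
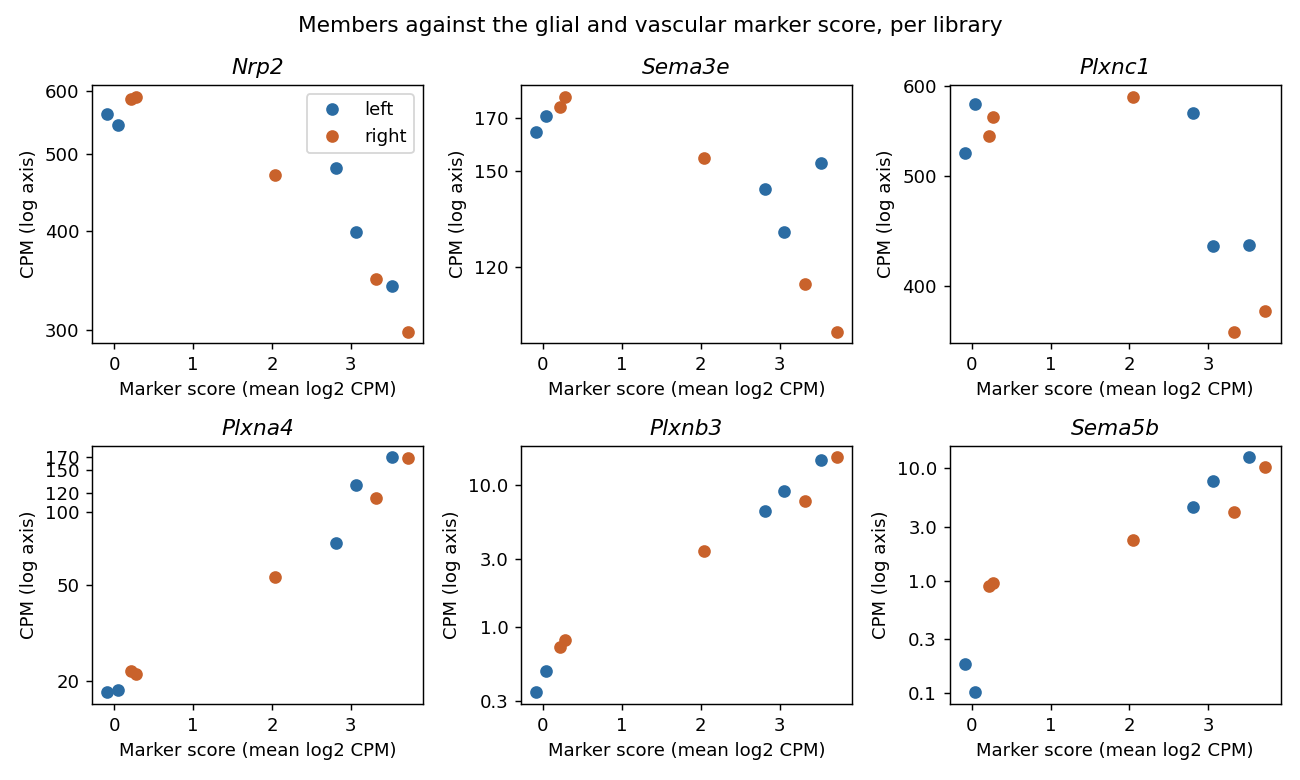
CPM (log axes) of Nrp2, Sema3e, Plxnc1, Plxna4, Plxnb3 and Sema5b against the glial and vascular marker score of each library, left in blue and right in orange. Libraries of both sides with a score from -0.089 to 0.28 hold the highest levels of Nrp2 and Sema3e and the lowest of Plxna4, Plxnb3 and Sema5b.

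The promoters of the members at the 2 ends of that order are shown for their letters, since Nrp2 and Sema3e were the members with replicates 1 and 5 on top, and Plxnb3 and Sema5b had the widest ranges the other way. Windows run from 250 bases before to 50 bases after the annotated start (RefSeq, GRCm38.p6), 5′ to 3′ on the plus strand, on which all 4 genes lie. The Nrp2 window is chr1:62703067-62703366, that of Sema3e chr5:14025026-14025325, that of Plxnb3 chrX:73756853-73757152 and that of Sema5b chr16:35541112-35541411. Capitals mark matches to a GC box (GGGCGG) or an E-box (CACGTG) on either strand, with overlapping matches counted.
Nrp2: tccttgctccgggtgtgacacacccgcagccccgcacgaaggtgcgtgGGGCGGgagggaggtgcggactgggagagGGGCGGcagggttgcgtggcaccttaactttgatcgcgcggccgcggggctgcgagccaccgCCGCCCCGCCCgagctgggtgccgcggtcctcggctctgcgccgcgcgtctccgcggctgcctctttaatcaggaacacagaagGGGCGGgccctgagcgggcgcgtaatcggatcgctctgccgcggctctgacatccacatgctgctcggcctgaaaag
Sema3e: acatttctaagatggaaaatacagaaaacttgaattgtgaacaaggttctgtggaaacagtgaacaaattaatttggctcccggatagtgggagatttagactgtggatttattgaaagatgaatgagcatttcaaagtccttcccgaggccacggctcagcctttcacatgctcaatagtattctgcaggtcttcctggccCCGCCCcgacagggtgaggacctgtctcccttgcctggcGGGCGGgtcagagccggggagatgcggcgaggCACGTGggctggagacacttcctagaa
Plxnb3: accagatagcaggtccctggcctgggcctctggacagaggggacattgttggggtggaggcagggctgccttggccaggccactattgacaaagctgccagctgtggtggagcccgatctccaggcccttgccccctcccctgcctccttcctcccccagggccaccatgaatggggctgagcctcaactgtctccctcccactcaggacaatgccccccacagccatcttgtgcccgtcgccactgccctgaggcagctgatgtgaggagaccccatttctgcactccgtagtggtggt
Sema5b: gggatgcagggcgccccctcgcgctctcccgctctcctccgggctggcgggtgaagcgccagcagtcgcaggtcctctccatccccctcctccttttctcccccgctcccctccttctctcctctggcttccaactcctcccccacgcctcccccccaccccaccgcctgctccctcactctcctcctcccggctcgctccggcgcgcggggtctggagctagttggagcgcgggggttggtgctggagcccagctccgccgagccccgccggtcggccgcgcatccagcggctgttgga
The GC box had 5 matches in Nrp2, 2 in Sema3e and 0 in Plxnb3 and Sema5b, and 35.7% of 32851 promoter windows hold at least 1. An E-box was found once, in Sema3e, and 7.15% of windows hold one. A TATA box (TATAAA, in 13.6% of windows) and a homeodomain core (TAATTA, in 5.29%) were searched on both strands and matched in none of these 4 windows. The dinucleotide CG occurred 37 times in Nrp2, 11 times in Sema3e, 4 times in Plxnb3 and 27 times in Sema5b, against a median of 7 over all windows. The 4 were chosen after their values were seen. Of the 32 rows, 26 had a window in the table.

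Other genes of the pathway were counted as lists. Of 20 co-receptors and alternative receptors of semaphorins 17 were tested and 0 called, 7 with a log2 fold change above 0 and a median of -0.022. Nrcam, L1cam and Robo1 led the list. L1cam, a partner of Nrp1, ranged from 53.8 to 59.7 CPM in replicates 1 and 5 and from 184 to 698 CPM in replicates 2 to 4, while Nrcam, a partner of Nrp2, ranged from 402 to 440.0 CPM in replicates 1 and 5 and from 419.7 to 522 CPM in replicates 2 to 4. Robo1, a receptor of Slit ligands, stood at 213 ± 47.9 CPM in left libraries and 203 ± 19.9 CPM in right libraries. In that list 10 of 17 had replicates 1 and 5 below the rest and 0 above, where 24.3% and 22.9% of all genes did. The list shares Flt1 with the endothelial and pericyte markers, so this count is not independent of the marker levels. Of the VEGF ligands of neuropilins 4 were tested and 0 called (median log2 fold change -0.090), led by Vegfb at 57.6 ± 14.3 CPM in left libraries and 52.8 ± 17.0 CPM in right libraries, Vegfa at 19.2 ± 2.48 CPM (left) and 18.1 ± 2.59 CPM (right) and Pgf at 3.28 ± 1.23 CPM (left) and 3.81 ± 0.987 CPM (right). All 32 plexin effectors and cytoplasmic partners were tested and 0 called, 17 with a log2 fold change above 0 and a median of 0.016. Its leaders were Dpysl2, a collapsin response mediator that acts on microtubules, at 1022 ± 137 CPM in left libraries and 1049 ± 191 CPM in right libraries, the GTPase Rac1 at 963 ± 104 CPM (left) and 920.5 ± 151 CPM (right), and the kinase Gsk3b at 906 ± 68.8 CPM (left) and 952 ± 37.6 CPM (right). Of these 32 effectors, 9 had replicates 1 and 5 below the rest and 8 above, where 24.3% and 22.9% of all genes did.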

How the data were processed

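The authors deposited raw read counts per gene, 1 file per library. They name mm10 as the build and list HTSeq and STAR 2.0.0e among their tools (per the submitters' processing notes); annotation, strand setting and filters are unknown here. Of the rows, 6 name no gene and were left out: a row named unknown with 0 to 4 reads, and summary lines, among which reads outside genes made up 13.6% to 18.9% and ambiguous reads 2.25% to 2.81% of the reads that were assigned, ambiguous or outside genes. Libraries were grouped by side from their titles. CPM was computed over gene rows. Sides were compared in edgeR 4.0.16 (R 4.3.3) by its quasi-likelihood test, two-sided, with no term but side. Settings were TMM, robust, filterByExpr at a minimum count of 10 and Benjamini-Hochberg adjustment over all genes tested. A run on simulated data is not reported here and does not bear on the lack of calls between the sides. In this edgeR test 0.554% of genes were at an unadjusted p under 0.05, so the lack of calls does not show equal sides. Alternatives used DESeq2 1.42.0, limma 3.58.1, other scalings and filters, covariates and subsets of libraries. The log2 fold changes use TMM-scaled counts, and the marker score has a prior count of 2. Gene positions and coding exon lengths came from GENCODE M21 (GRCm38). Counting noise matters mainly for members with few reads. Values are named in every library for the 12 most abundant members, the leader of each class and members called in any fit. Sema3f meets none of these and is also named in every library, a choice made outside this rule. The members, the lists, the split by replicate number and the tests were chosen with earlier results of these data known.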

Additional observations from a re-analysis of the deposited data

Results flagged for a closer look

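In 4 of 64 groups of 5 libraries (each row on each side), 1 library lay apart from the others by Dixon's criterion (gap over range above 0.710), where chance flags about 1 in 20 groups. Sema5a stood at 583 CPM in right replicate 2, above 429 CPM in the next library. Plxna3 stood at 19.5 CPM in right replicate 3, above 13.2 CPM in the next. Sema4a stood at 17.6 CPM in right replicate 3, above 12.8 CPM in the next. Sema4c stood at 1.21 CPM in left replicate 1, below 1.47 CPM in the next.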

How the results depend on the processing

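Between the sides, edgeR, DESeq2 and limma called 0 genes under every alternative except replicates 1 and 5 alone, where edgeR called 1992. Genes at an unadjusted p under 0.05 numbered 90, against 34 with a mean CPM of at least 1, 141 in DESeq2, 2359 in limma-voom with sample weights, 297 with the replicate block, 508 with the marker score as a covariate, 23 with replicates 1 and 5 summed, 329 with no filter and 4993 in replicates 1 and 5 alone; leaving out 1 library gave 50 to 149. Leaving out right replicate 1, 2, 3 or 5 changed this count by more than 1.5 times, to 50, 149, 148 and 52. Members at that level numbered 0, against 2 in limma-voom (Sema3f and Sema7a) and 15 in replicates 1 and 5 alone, and leaving out each library gave 0. In replicates 1 and 5 alone the log2 fold change turned to -0.20 for Plxna1, -0.26 for Plxna4, -0.33 for Plxnb2, -0.86 for Plxnb3 and -2.71 for Sema5b, and the cause was not tested. The count of members with replicates 1 and 5 above the others was 2, and 7 in the right libraries alone, an alternative chosen after seeing the data. Same-numbered libraries of the sides deviated together for replicates 1, 3, 4 and 5 (correlations 0.86, 0.81, 0.71 and 0.87), but for replicate 2 it was 0.096, so the numbers were not taken to pair the samples. Not every library correlated best with its own number. Correlations between different numbers reached similar values, at 0.863 for left 5 with right 1, 0.848 for left 1 with right 5 and 0.859 for left 4 with right 3. Lane numbers were the same on both sides for replicates 2 to 5 (4, 5, 1 and 2), but 7 (left) and 3 (right) for replicate 1. Sema3c, Sema4a and Sema4f kept their direction and passed the adjusted p in replicates 1 and 5 alone. In limma-voom the log2 fold changes lay between -0.29 and 1.99, with 1.99 for Sema3f, 1.81 for Plxnb3, 1.22 for Plxna4, 1.02 for Sema7a, 0.997 for Sema5b, 0.78 for Plxna2 and 0.45 for Plxnb1, and turned to -0.27 for Nrp2 and -0.19 for Sema3e (adjusted p 0.285 to 0.515 for these 9). Among these 9 the sign also turned for Sema3f (-0.34 in the main edgeR fit), Sema7a (-0.0098 there) and Plxnb1 (-0.054 there). Depth limits Sema3b, Sema3g, Sema3f and, in replicates 1 and 5, Sema5b and Plxnb3.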
